A study of Drosophila melanogaster with 2 samples.

Results

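A set of 10 genes of the Notch, Wingless and Dpp signalling pathways that act in growth of the Drosophila melanogaster eye were examined for binding by the transcription factor toe (twin of eyegone). They were N, Ser, fng, Su(H), H and mam of the Notch pathway, wg, arm and pan of the Wingless pathway, and dpp. All 10 were taken by their Ensembl symbol, out of 13968 protein-coding genes of the annotation. The rule itself uses no measured value, but the members were chosen with earlier results of these data known. Binding was measured by chromatin immunoprecipitation and sequencing (ChIP-seq) in whole adult males, of unknown age, from a transgenic line (toe-GFP) that stably carries toe with GFP fused to its C-terminus. An antibody against GFP recovered the protein, and chromatin had been sonicated to fragments of 200 to 800 bp. There was 1 group with 2 biological replicates, numbered 2 and 3, of the same line. The sources used here name neither the promoter driving the fusion nor the number of flies per replicate. Regions had been called against a control, and no untagged or other group was analysed here, so no comparison between conditions was made.

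Notch is a receptor whose intracellular part, once cut free after contact with a ligand on a neighbouring cell, joins the DNA-binding protein Su(H) and the coactivator mam at target genes. Wingless (wg) is a secreted Wnt ligand that stabilises Armadillo (arm), the fly beta-catenin, which then works with the TCF factor Pangolin (pan). Dpp is a secreted ligand of the BMP family, and it acts with Notch and Wingless in growth and patterning of the eye disc of the larva. The eye disc has been replaced by the adult eye by the stage studied here. In whole flies, strong binding in few cells and weak binding in many cells cannot be told apart.

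The deposited dm6 lists included 3 that held 30000 regions each, called on both replicates pooled, on replicate 2 and on replicate 3. The authors' reproducible list held 3469 peaks, with signals from 58.2 to 3277.7 (median 102). Signal is the authors' value per region, on a scale that these sources leave unstated. Signals and ranks, where rank 1 is the highest signal, were read within a list. A q-value under 0.05 was recorded for 3011 of the reproducible peaks and for the same number of pooled regions. Sequencing depth is unknown. A region was placed at a gene's promoter when its summit lay within 500 bp of an annotated start site of that gene. Other regions were placed inside the gene, or outside it within 10 kb of either end.

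The genomic sequence around 5 of the reproducible peaks is shown here, as examples of peaks at a member's own promoter, upstream of its start site and in its introns. The windows of the other 7 member peaks, among them both peaks inside mam, were searched for motifs but are not printed. Each window runs 100 bp either side of the summit on the plus strand of dm6, from the RefSeq copy of the assembly. Capitals mark matches to any of 11 short motifs searched on both strands. The windows are chr2L:15039342-15039542 at the promoter of Su(H), chrX:1900173-1900373 at the promoter of arm and chr3L:20950250-20950450 upstream of fng. The remaining windows lie in introns of dpp, at chr2L:2428978-2429178 and chr2L:2433573-2433773.
Su(H) promoter: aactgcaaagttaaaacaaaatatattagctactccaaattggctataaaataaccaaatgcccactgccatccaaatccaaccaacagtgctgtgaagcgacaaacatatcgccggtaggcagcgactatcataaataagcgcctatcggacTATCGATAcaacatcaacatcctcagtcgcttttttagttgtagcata
arm promoter: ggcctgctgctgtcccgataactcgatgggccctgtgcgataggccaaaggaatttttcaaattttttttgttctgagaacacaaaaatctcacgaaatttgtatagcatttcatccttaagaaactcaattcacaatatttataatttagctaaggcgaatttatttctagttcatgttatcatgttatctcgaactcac
fng upstream: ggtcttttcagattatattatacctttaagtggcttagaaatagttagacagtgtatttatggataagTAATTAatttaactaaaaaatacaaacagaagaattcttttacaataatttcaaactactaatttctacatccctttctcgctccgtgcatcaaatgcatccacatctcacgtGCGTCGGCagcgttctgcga
dpp intron, first window: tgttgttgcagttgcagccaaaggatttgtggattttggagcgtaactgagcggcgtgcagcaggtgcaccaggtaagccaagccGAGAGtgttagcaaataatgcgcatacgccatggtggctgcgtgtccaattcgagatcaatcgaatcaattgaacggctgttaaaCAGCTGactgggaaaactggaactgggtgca
dpp intron, second window: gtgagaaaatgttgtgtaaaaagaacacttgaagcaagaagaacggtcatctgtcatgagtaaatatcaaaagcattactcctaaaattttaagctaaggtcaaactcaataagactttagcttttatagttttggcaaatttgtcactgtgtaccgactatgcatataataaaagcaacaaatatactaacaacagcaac

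In the Su(H) window the DNA replication-related element TATCGATA began 53 bases to the right of the summit. This element was present in 5.04% of the windows of all 3469 reproducible peaks and in 6.44% of windows of the same length around 19275 start sites of protein-coding genes. The fng window held the homeodomain core TAATTA (17.0% of all peak windows, 9.39% of start site windows) from 32 bases left of the summit. It also held GCCGNCGC, a GC-rich motif of the kind bound by Mad, on the minus strand (1.73% of peak windows, 3.39% of start site windows). The first dpp window held GAGAG (24.0% of peak windows, 25.0% of start site windows) and the E-box CAGCTG (10.8% and 13.4%). CAGCTG was also in the stronger peak upstream of arm, AGTGTTG (7.99% and 5.25%) in the stronger peak upstream of pan, and ACAGTGG (7.38% and 2.28%) in the stronger peak inside mam. The windows at the arm promoter and in the second dpp peak held none of the 11 motifs, and in all, 6 of the 12 member windows held at least 1 motif. How many of all 3469 peak windows held at least 1 of the 11 was not counted, so this number has no background. The searched motifs also included GTGGGAA, a site of Su(H), CTTTGAT, a site of pan, GGTCACACT (core promoter motif 1) and GTCACGC (a paired domain core), and these letters were in none of the 12 windows. They occurred in 2.62%, 3.49%, 2.02% and 0.663% of all peak windows, in that order. In start site windows the shares were 2.25%, 3.28%, 4.42% and 1.14%. No 2 matches overlapped, and a match is not by itself a binding site.

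The 10 genes carried 12 reproducible peaks at 7 genes. Only Su(H) and arm had one at their own promoter (2 of 10, 20%), a share next to the 19.3% of all protein-coding genes. Inside the gene, mam and dpp had peaks (2 of 10, 20%), where the share over all protein-coding genes was 5.33%. The members are long, with a median length of 22900 bp against 2164.5 bp over all protein-coding genes. Among genes of at least 10 kb, 2 of 6 members (33.3%) and 24.0% of all such genes had a peak inside. Outside the gene within 10 kb, N, fng, arm and pan had peaks (4 of 10, 40%; 47.2% over all genes). In any of the 3 places 7 of 10 members (70%) had a peak, against 55.2% of all genes. Of the members of at least 10 kb, 5 of 6 (83.3%) had one, against 64.5% of all genes of that length. With 10 genes, 1 gene moves a share by 10 percentage points, so these shares are descriptions and were not tested. Among the 1734 strongest reproducible peaks no member (0) had a promoter peak, where 12.7% of all protein-coding genes had one. With a window of 1000 bp 4 members had one (21.8% of all genes), and from replicate 2 alone 4 (21.1% of all genes), where mam and pan joined. Ser, H and wg had no reproducible peak in any of these places.

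**Figure D1:**
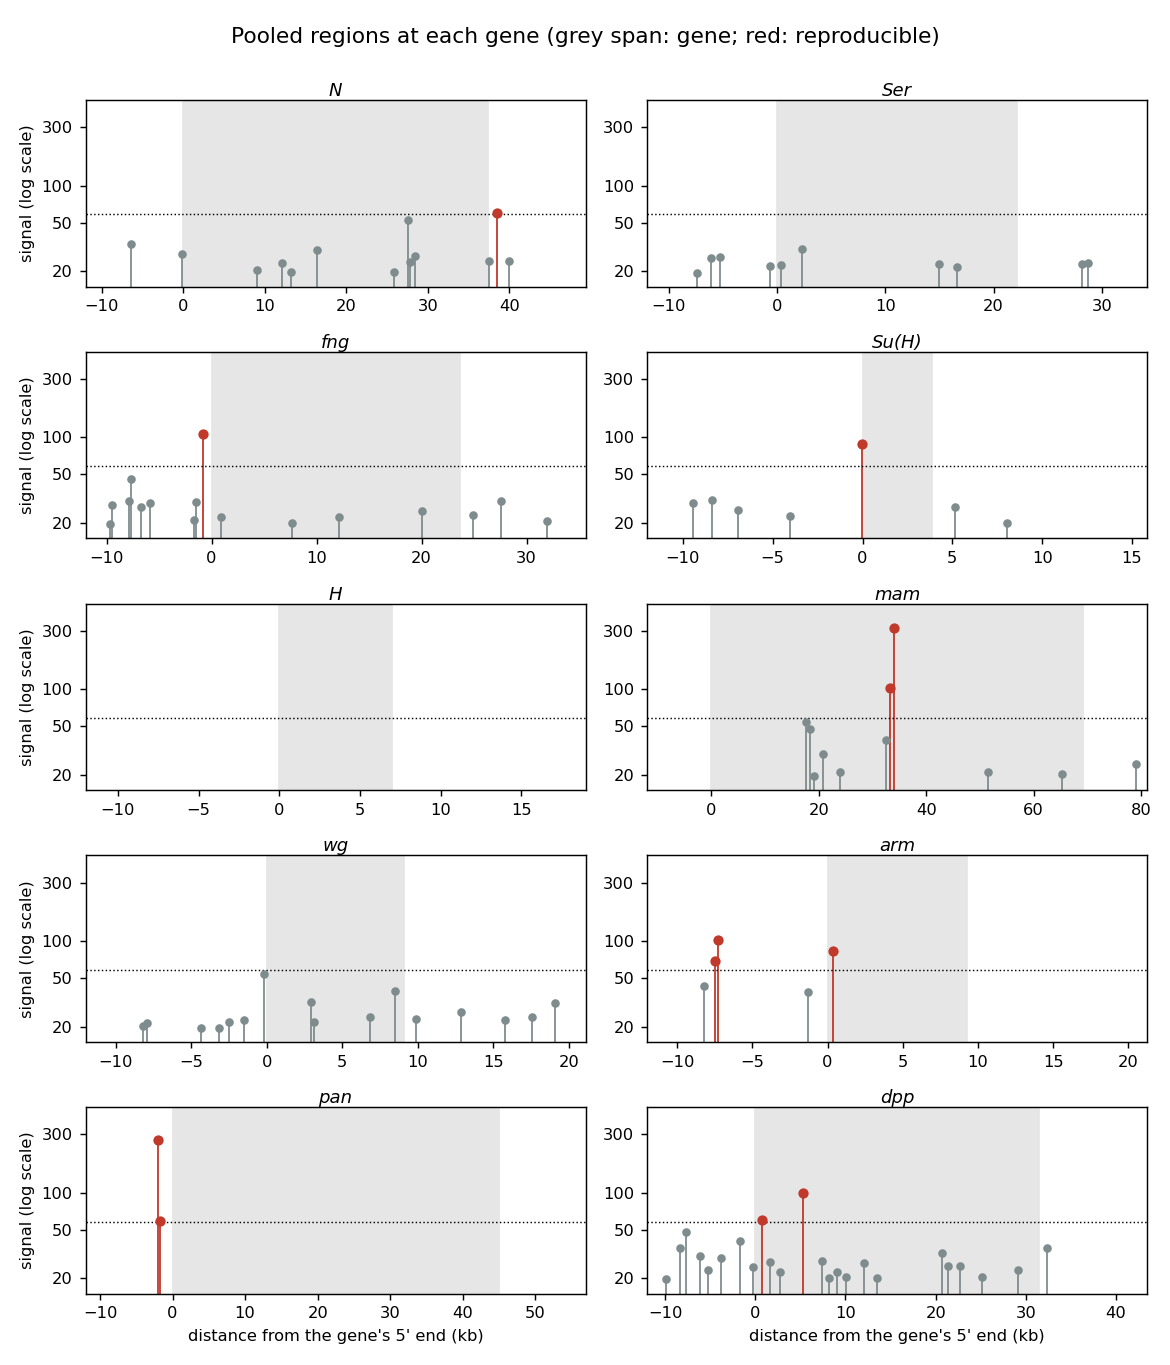
Regions of the pooled list at each of the 10 genes, by distance of the summit from the gene's 5′ end (x axis, kb, along the gene's direction) and signal (y axis, log scale). Grey spans are the genes, red marks the 12 reproducible peaks, grey marks other pooled regions, and the dotted line is the lowest signal in the reproducible list (58.2); the highest point is the intronic peak of mam at 317, and H has no pooled region.

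By the start sites around them, the 12 peaks fell into 4 kinds. The promoters of Su(H) and arm held 2 of them. A further 4, inside mam and dpp, had no start site of any gene within 500 bp, as held for 1180 of all 3469 reproducible peaks. The other kinds were not counted over all reproducible peaks. Another 5, those assigned to N, arm and pan by distance, had a start site of another protein-coding gene within 500 bp. The remaining peak, at fng, had only the start site of the non-coding gene lncRNA:CR45243 within 500 bp, and fng was the protein-coding gene with the nearest start site.

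Ser encodes a ligand of Notch, and it had only weak regions. At the promoter of Ser (FBgn0004197, 3R, 27172090 to 27194267, minus strand) the pooled list held 1 region, with a signal of 22.3 at rank 21906. Replicate 2 had a region there with a signal of 14.8 at rank 16513, and replicate 3 had none. The highest pooled region at Ser lay inside the gene, with a signal of 30.2 at rank 10355, far below the 3469 reproducible peaks. The nearest reproducible summit lay 20938 bp from the gene, with a signal of 102.

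fng encodes a glycosyltransferase that modifies the Notch receptor and so sets which ligand it responds to. Its one reproducible peak lay upstream of the gene (FBgn0011591, 3L, 20925891 to 20949512, minus strand), from 20950140 to 20950559. The summit was 838 bp from the start site of fng, outside the promoter window. Its signal was 107 at rank 1634, 60.6 at rank 1869 in replicate 2 and 45.1 at rank 1923 in replicate 3. The ranks in both replicates lay close together, and this was the highest region at fng in each of the 3 lists. No list had a summit within 500 bp of the start site of fng, and the 4 pooled regions inside the gene, all intronic, had signals of 25.2 or less.

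N encodes the receptor itself. Its promoter (FBgn0004647, X, 3134870 to 3172221, plus strand) had a region in every list except the reproducible one, all weak. The signals were 27.7 at rank 12835 in the pooled list, 17.7 at rank 10805 in replicate 2 and 16.2 at rank 12416 in replicate 3. Inside the gene the pooled list held 8 intronic regions. The highest, from 3162243 to 3162662, had a signal of 52.9 at rank 3883, just under the reproducible list. The reproducible peak assigned to N lay 1118 bp past its 3′ end, from 3173129 to 3173548, and its summit was 199 bp from a start site of CG18508. It had a signal of 59.6 at rank 3366 and a q-value above 0.05. Its rank was 3326 in replicate 2 but 9695 in replicate 3, so replicate 3 alone would not have placed it among its 3469 strongest regions.

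Su(H) encodes the DNA-binding protein of the pathway, and it had the higher of the promoter peaks at these genes. The peak ran from 15039232 to 15039651 on 2L, over the start site of the gene (FBgn0004837, 15039488 to 15043334, plus strand), with the summit 46 bp from that site. Its signal was 88.9 at rank 2073. Replicate 2 gave a signal of 60.6 at rank 1867 and replicate 3 a signal of 31.8 at rank 3113, both inside the 3469 strongest regions of their list. No start site of another gene lay within 500 bp of the pooled summit. Replicate 3 had a second region there, with a signal of 31.2 at rank 3215. Its summit was 327 bp from the start site of Su(H) and 300 bp from one of CIAPIN1. Replicate 2 also had a region 56 bp from a start site of CIAPIN1, with a signal of 20.9 at rank 7439. The other 6 pooled regions within 10 kb had signals of 30.7 or less, and none of the 4 lists had a summit inside the gene more than 500 bp from its start site.

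mam encodes the coactivator that joins the Notch intracellular part and Su(H), and it carried the strongest peak of the 10 genes. The gene (FBgn0002643, 2R, 13991203 to 14060356, plus strand) had a pair of intronic peaks. The stronger, from 14025102 to 14025299, had a signal of 317 at rank 295, with 202 at rank 263 in replicate 2 and 118 at rank 395 in replicate 3. The weaker, from 14024298 to 14024717, had a signal of 103 at rank 1704, with 65.6 at rank 1693 in replicate 2 and 43.2 at rank 2022 in replicate 3. Among the 1180 reproducible peaks with no start site of any gene within 500 bp, whose median signal was 85.3, the stronger ranked 54 and the weaker 422. The nearest start site of mam lay 6487 bp from the stronger summit, and that of CG18371 lay 3444 bp away. At an internal promoter of mam the pooled list held regions with signals of 54.0 and 47.4, at ranks 3792 and 4480, below the reproducible list.

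H encodes Hairless, the antagonist that binds Su(H) and represses its targets. The gene (FBgn0001169, 3R, 20621938 to 20628915, plus strand) had no region in the pooled list or the replicate 3 list at its promoter, inside it or within 10 kb. Of all protein-coding genes, 8.0% had no pooled region in these places. Replicate 2 alone had 4 regions within 10 kb of H. The nearest reproducible summit lay 64143 bp away.

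wg encodes the Wingless ligand, and its promoter region fell just short of the reproducible list. The gene (FBgn0284084, 2L, 7307159 to 7316265, plus strand) had a promoter region from 7306794 to 7307213 with a summit 155 bp from the start site. Its signal was 53.5 at rank 3826, with 28.5 at rank 4608 in replicate 2 and 25.6 at rank 4422 in replicate 3. It was present in all 3 lists at similar ranks and in none of them among the 3469 strongest. The other 15 pooled regions at wg had signals of 39.4 or less. The nearest reproducible summit was 25541 bp away, with a signal of 84.2 at rank 2205, and it lay within 10 kb of the neighbouring Wnt gene Wnt4.

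arm encodes beta-catenin, and it had a promoter peak. The gene (FBgn0000117, X, 1891401 to 1900646, minus strand) has 4 annotated start sites. A peak spanned 1900063 to 1900482, and its summit lay 100 bp from one of them, in an annotated intron, and also within 500 bp of a start site of asRNA:CR45929. Its signal was 82.7 at rank 2259. The replicates ordered differently here than at Su(H), with 38.9 at rank 3195 in replicate 2 and 48.2 at rank 1742 in replicate 3. An overlapping pair of peaks 7295 and 7504 bp upstream, with signals of 103 and 69.4 (ranks 1725 and 2820), had summits 38 and 29 bp from start sites of Edem1, and mip130 also starts within 500 bp of both. Replicate 2 had a region for each of the pair, at ranks 1522 and 4053. Replicate 3 had 1 region for both, with a signal of 40.0 at rank 2267.

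pan encodes the TCF factor that binds DNA for the pathway. No region of the pooled list lay inside the gene (FBgn0085432, chromosome 4, 69326 to 114270, plus strand) or at its start sites. The single replicates did have regions there. Replicate 2 had 1 at a promoter (52.7 at rank 2226) and 2 inside the gene (highest 13.9 at rank 19176). Replicate 3 had 2 at promoters (highest 16.6 at rank 11640) and 3 inside the gene (highest 23.7 at rank 5123). An overlapping pair of reproducible peaks lay upstream, with summits 1999 and 1797 bp from the gene, and these were 120 and 322 bp from a start site of the ribosomal protein gene RpS3A. The stronger, from 67225 to 67360, had a signal of 272 at rank 399, with ranks of 436 in replicate 2 and 510 in replicate 3. The weaker, from 67319 to 67738, had a signal of 59.2 at rank 3393 and a q-value above 0.05, and its ranks were 15610 in replicate 2 and 1470 in replicate 3.

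dpp encodes the BMP ligand, and it held more pooled regions than any other of the 10 genes, 24 in all. The gene (FBgn0000490, 2L, 2428372 to 2459823, plus strand) had 13 of them inside it, all intronic, 3 at its promoters and 8 outside. Its stronger reproducible peak, from 2433463 to 2433882, lay 5301 bp from the nearest start site of dpp, with a signal of 99.4 at rank 1809. Replicate 2 had 58.0 at rank 1969 and replicate 3 had 37.3 at rank 2473. Its weaker peak, from 2428868 to 2429287, lay 706 bp from a start site, with a signal of 59.7 at rank 3361 and a q-value above 0.05. That peak had a rank of 3184 in replicate 2 and 6307 in replicate 3. The pooled regions at the promoters of dpp had signals of 25.2 or less.

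**Figure D2:**
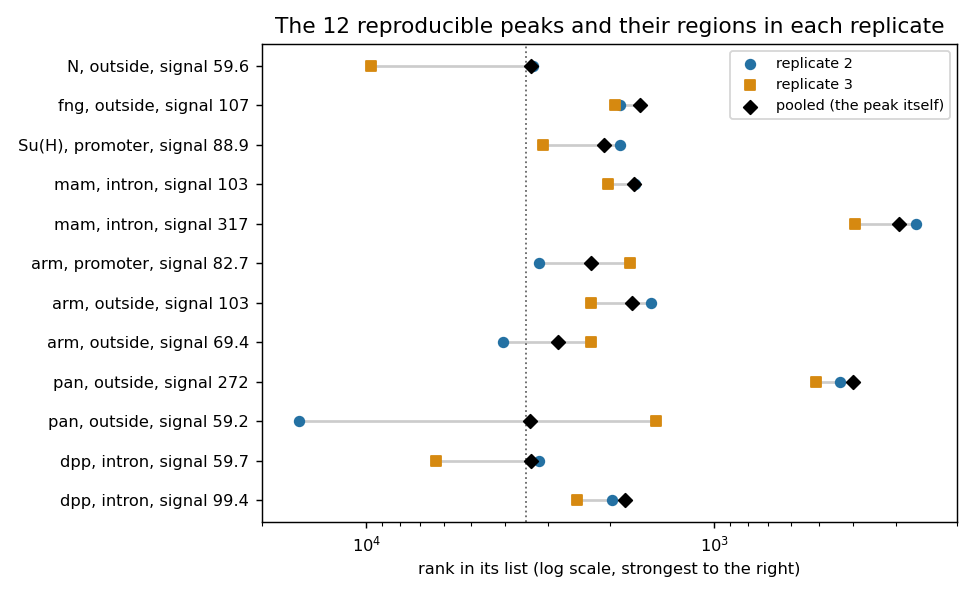
Ranks of the 12 reproducible peaks in the pooled list (black diamonds) and of the overlapping region with the nearest summit in replicate 2 (blue circles) and replicate 3 (orange squares), on a log axis with the strongest to the right; the dotted line is rank 3469. The intronic peak of mam (ranks 295, 263 and 395) and the stronger peak upstream of pan stand highest. The N peak and the weaker peaks of dpp, of pan and upstream of arm each have 1 replicate to the left of the line. Both peaks upstream of arm overlap the same region of replicate 3, at rank 2267, which is drawn for each.

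Over the longer lists, 7 of 10 members had a promoter region in the pooled list (41.9% of all protein-coding genes), 8 in replicate 2 (45.1%) and 7 in replicate 3 (44.2%). The pooled list held 104 regions at the members, of which 12 (11.5%) were reproducible, next to 11.6% of the 30000 pooled regions. Each of the 12 had the same signal and rank in the pooled list as in the reproducible list. The highest other pooled region at a member, at mam, had a signal of 54.0, under the lowest reproducible signal of 58.2. At the members these shares therefore follow the pooled signal, and they are not rates of agreement between replicates for single regions. By place, 2 of 10 pooled promoter regions (20%) were reproducible, below the 34.3% over promoter regions of all protein-coding genes. Inside the genes 4 of 40 (10%) were reproducible, against 6.84%, and outside 6 of 54 (11.1%), against 14.7%. The promoter regions of mam and wg, at ranks 3792 and 3826, and the intronic region of N, at rank 3883, were those nearest below the reproducible list.

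**Figure D3:**
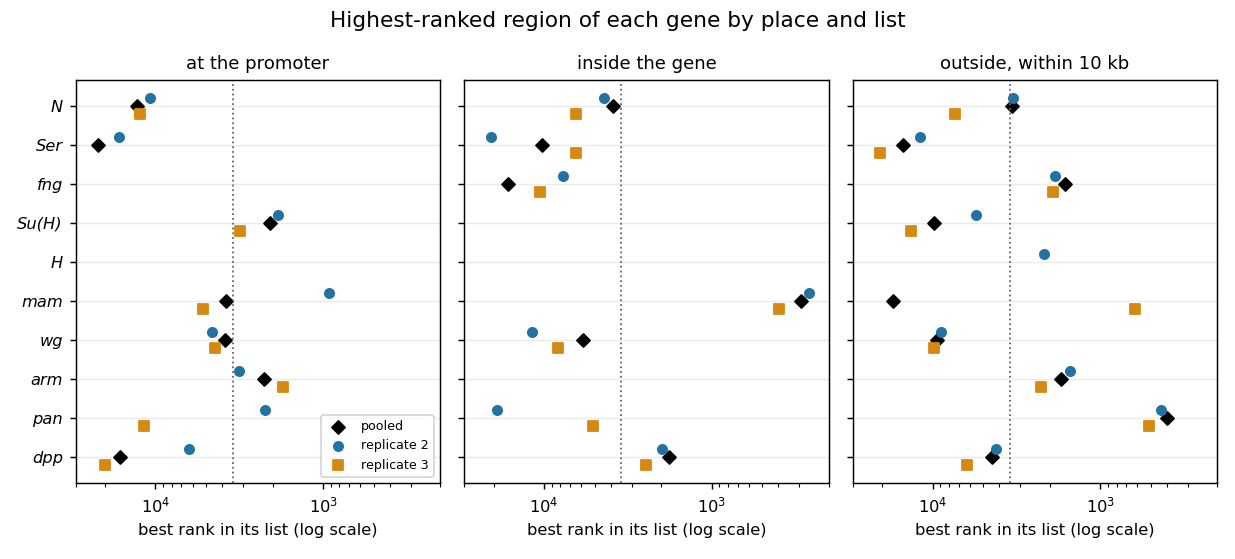
Best rank of each gene's regions (x axis, log scale, strongest to the right) at the promoter, inside the gene and outside it within 10 kb, in the pooled list (black diamonds), replicate 2 (blue circles) and replicate 3 (orange squares). The dotted line is rank 3469, the length of the reproducible list; at promoters only Su(H) and arm lie to its right in all 3 lists.

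Some regions near the members were strong in 1 replicate and missing from the pooled list. In replicate 2 this held for 300 of the 3469 strongest regions (8.65%), and in replicate 3 for 295 (8.50%). At the members there were 5. Their share of the member regions among the 3469 strongest of a replicate was not computed, so 5 is a count only. Replicate 2 had a region of signal 103 at rank 918, 398 bp from a start site of mam and 98 bp from one of RN-tre. It also had a region of signal 53.8 at rank 2165, 5865 bp from H and 48 bp from a start site of Pi3K92E. A further region of replicate 2, with a signal of 52.7 at rank 2226, had its summit 38 bp from a start site of pan, where replicate 3 had only 16.6 at rank 11640. Replicate 3 had a region of signal 93.1 at rank 617, 7767 bp outside mam and 41 bp from a start site of CG8067. It also had a region inside mam (signal 63.9, rank 1156), and neither overlapped a region of replicate 2. Every reproducible peak is also a pooled region, so none of these 5 regions could be in the reproducible list. Why the pooled list lacks them was not tested.

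In strength the promoter peaks of Su(H) and arm were in the lower part of the promoter peaks. Among 2205 reproducible peaks at promoters of protein-coding genes they ranked 1474 and 1587. The median of the highest promoter signal over the 2701 genes with a promoter peak was 135. The promoter peaks next above and below Su(H) (88.93) were those of Svil (88.99) and of CG42258 with Rab40 (88.90). Those next to arm (82.73) were Sur-8 (82.76) and SLO2 (82.71). Closeness in signal within this list is the only likeness measured here.

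Of the other genes of the 3 pathways, 90 in all, 27 had a promoter peak (30.0%), next to 19.3% of all protein-coding genes. These shares were not matched for gene length or number of start sites, and any annotated start site of a gene could count. Median lengths were 3269 bp in the Notch list, 12459 bp in the Wingless list and 11671 bp in the Dpp list, against 2164.5 bp over all protein-coding genes. Whether this bears on the promoter shares was not tested. Of these 27 genes, 13 shared the peak with a start site of another gene. The same share over all genes with a promoter peak was not computed, so this count is a description only. By list, 10 of 31 Notch genes (32.3%), 11 of 30 Wingless genes (36.7%) and 6 of 29 Dpp genes (20.7%) had one. The median highest promoter signals of these genes were 190, 123 and 97.1, against 135 over all genes with a promoter peak. Inside the gene the counts were 2, 1 and 7, or 6.45%, 3.33% and 24.1% of the lists, next to 5.33% of all protein-coding genes. Among list genes of at least 10 kb, 2 of 8 Notch genes (25.0%), 0 of 16 Wingless genes and 5 of 18 Dpp genes (27.8%) had a peak inside, next to 24.0% of all genes of that length.

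In the Notch list the highest promoter signal was at l(2)gd1, an endosomal regulator of Notch traffic (645, a peak also near Reps), followed by the corepressor gene gro (449). The gamma-secretase genes aph-1 (315, also near Snx21) and pen-2 (96.2, also near Ote) had peaks, as did the Notch inhibitor gene numb (267). The others were the Mediator gene skd (244, also near Pdss2), Nle (136, also near Sf3b1), the ubiquitin ligase genes Nedd4 (97.4) and neur (74.1), and the Notch target E(spl)m3-HLH (92.5, also near lncRNA:CR43644). All of these signals except that of neur were above the 88.9 of Su(H).

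In the Wingless list gish, which encodes a casein kinase, had the highest promoter signal (513). It was followed by the glypican gene dlp (187, also near RecQ5), the CBP gene nej (171), Apc of the destruction complex (156, also near spg) and the tankyrase gene Tnks (147, also near RASSF8). The kinase genes CkIalpha (123), nmo (111, also near Pop4) and sgg (99.8) had peaks as well. So did the feedback inhibitor gene nkd (104), wls, needed for Wingless secretion (104, also near Adck5), and the glypican gene dally (103).

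In the Dpp list the highest promoter signal was at shn, a zinc-finger cofactor of the pathway (301). It was followed by the ubiquitin ligase gene Smurf (115, also near CG30105), the inhibitory Smad gene Dad (107) and emc (86.9). The Smad gene Mad (60.3) and the receptor gene tkv (60.2, also near CR14033) had the lowest, close to the end of the reproducible list at ranks 3321 and 3330. Peaks inside genes were at wit (160), shn (137), put (125), Dad (105), tkv (92.0), Mad (75.1) and cv-2 (63.9), of which wit, put and tkv encode receptors.

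**Figure D4:**
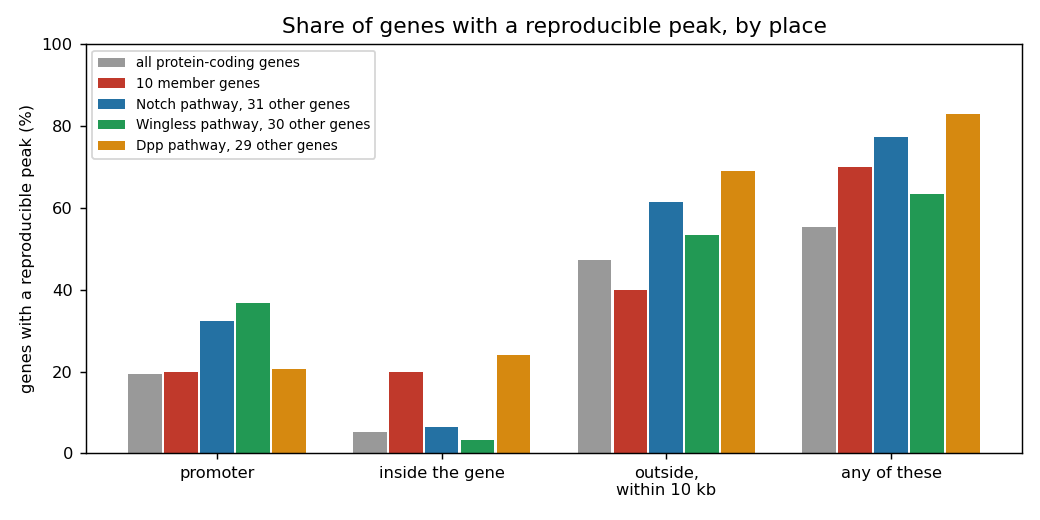
Share of genes with a reproducible peak (y axis, percent) at the promoter, inside the gene, outside within 10 kb and in any of these, for all 13968 protein-coding genes (grey), the 10 members (red) and the other genes of each pathway. At promoters the members stand at 20% beside 19.3% of all genes, and inside genes the members and the Dpp list stand at 20% and 24.1% beside 5.33% of all genes (24.0% of those of at least 10 kb).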

How the data were processed

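Per the labels and file notes, the authors called regions on each replicate and on both pooled, against a control, and derived the reproducible list by the irreproducible discovery rate. The deposited signal is the authors' value per region, and the deposited −log10 of the q-value was used only to mark q under 0.05, with columns read by the narrowPeak layout. The sources used here name no aligner or peak caller. The 4 dm3 lists were not used, and depth is unknown.

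The gene annotation was Ensembl release 115 (BDGP 6.54). All regions of the 4 dm6 lists lay within the chromosome lengths of the RefSeq sequence. Summits were placed with python 3.11.15, numpy 2.4.6 and pandas 2.3.3, by a function first tested on simulated data. Regions of different lists were matched by at least 1 bp of overlap. Shares are set beside those of all protein-coding genes with no test, since 1 group and a chosen list allow none. Of the pathway lists, 31 of 32, 30 of 30 and 29 of 29 symbols matched. Members and lists were chosen with earlier results of these data known. Named genes are the members, list genes with a promoter peak (up to 12 a list), the genes next to Su(H) and arm in signal, and genes sharing a summit. Genes of the Dpp list with peaks inside them, and the genes nearest to regions of 1 replicate, were named after their values were seen. Alternatives were other windows and distances, stronger peaks, a q-value under 0.05, overlap and single replicates.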

Additional observations from a re-analysis of the deposited data

How the results depend on the processing

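No paired analysis was possible because there is 1 group. With a promoter window of 1000 bp, 4 members had a promoter peak in place of 2, since fng and dpp joined (21.8% of all protein-coding genes). Among the 1734 strongest reproducible peaks there were 0 members with a promoter peak, 1 with a peak inside the gene (mam) and 4 with one in any place, next to 12.7%, 2.47% and 39.7% of all genes. From the 3469 strongest regions of a single replicate, promoter counts ran from 2 (replicate 3; 19.7% of all genes) to 4 (replicate 2, where mam and pan joined; 21.1%). With a 200 bp window, 17 of the 90 pathway list genes had a promoter peak, next to 14.4% of all genes. With the 500 bp window these were 27 of 90 and 19.3%. The best rank at a gene in the single replicates ran from 3326 to 6491 at N, 6440 to 11942 at Ser, 1869 to 1923 at fng and 1867 to 3113 at Su(H). It ran from 263 to 395 at mam, 4422 to 4608 at wg, 1522 to 1742 at arm, 436 to 510 at pan and 1969 to 2473 at dpp. At N, Ser and arm the replicates had their best rank at different sites. The promoter of arm ranked 3195 in replicate 2 and 1742 in replicate 3, and the region upstream of arm 1522 and 2267. H has no pooled rank. The other counts under these alternatives lay within 1.5 times those reported, but the genes changed in part. N left the genes with a peak in any place at a q-value under 0.05 (6 members, 52% of all genes). It also left from replicate 3 alone (6, 56.4%), and H joined from replicate 2 alone (8, 58.2%). From replicate 3 alone mam took the place of N among the 4 genes with a peak outside within 10 kb (48.3% of all genes). The lists carry no read counts, so weak and absent binding cannot be told apart.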

Other observations

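The density of pooled summits between the ends of a gene, promoter summits included, differed among the 10. It was 4.77 summits per 10 kb in dpp, 2.14 in N, 1.80 in Ser, 1.69 in fng and 1.45 in mam, next to a median of 2.17 over the 1985 protein-coding genes of at least 10 kb. Among the 4 shorter members it was 4.39 in wg (9107 bp) and 1.08 in arm (9246 bp, 1 summit, that of its promoter peak), and Su(H) and H had no such summit. No pooled summit lay inside pan, which is 44945 bp long, though each replicate list had regions inside it. Of the genes of at least 10 kb, 219 (11.0%) had no pooled summit inside. Of the 40 such genes on chromosome 4, where pan lies, 12 (30.0%) had none. The median density of those 40 genes was 0.957. How far reads map on chromosome 4 was not tested.

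The peaks of the Notch list at gro and in the E(spl) cluster also lie within 10 kb of several other genes of that list. The peak at the promoter of gro (signal 449) counts as a nearby peak for E(spl)m7-HLH and E(spl)m8-HLH, whose own promoters had no reproducible peak.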
